A study of Mus musculus with 9 samples.

Results

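The genes of the CCR4-NOT complex, the main deadenylase of the cell, were examined in RNA-seq data from mouse 8-cell embryos. The members were the 10 subunit genes *Cnot1*, *Cnot2*, *Cnot3*, *Cnot4*, *Cnot6*, *Cnot6l*, *Cnot7*, *Cnot8*, *Cnot10* and *Cnot11*, taken by gene symbol from the 55335 entries of each expression table. All 10 averaged 1 FPKM or more (fragments assigned to a gene, scaled by transcript length and by the number of mapped fragments) over the libraries, as did 13011 entries in all, which were the genes tested. Zygotes of ICR mice had received siRNA by microinjection and were grown to the 8-cell stage. The control group received a nontargeting siRNA, the MFN1-KD group an siRNA against *Mfn1*, which encodes a mitochondrial fusion protein, and the H3.3-KD group siRNA against histone H3.3, which the genes *H3f3a* and *H3f3b* encode. Each group had 3 libraries, and all 9 libraries came from injected embryos. One library was made from a pool of 5 to 10 embryos. The paper calls the 3 libraries of a group biological replicates. Nothing in the labels says that these libraries came from separate matings or injection days, so the p-values measure the spread between these pools. A knockdown lowers a transcript without removing the gene.

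CCR4-NOT shortens the poly(A) tail of mRNAs, which is the first step in the decay of most of them. CNOT1 is the scaffold on which the other subunits sit, and the catalytic work is done by a nuclease of the CAF1 type (CNOT7 or CNOT8) together with one of the CCR4 type (CNOT6 or CNOT6L). In the mouse oocyte and early embryo the complex is known for clearing maternal mRNA during the maternal-to-zygotic transition, with CNOT6L as a main catalytic subunit in the oocyte and BTG4 as its licensing partner.

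The siRNA targets were low in the groups labelled for them. *Mfn1* was at 32.6 ± 16.4 FPKM in control and 5.03 ± 4.23 in MFN1-KD (mean ± SD, n = 3, as for the other means here). *H3f3a* fell to 7.72% and *H3f3b* to 8.24% of the control mean in H3.3-KD. The target of each knockdown also differed in the other. *Mfn1* was at 76.6 ± 32.1 FPKM in H3.3-KD, overlapping with control. In MFN1-KD *H3f3a* was at 69.1% and *H3f3b* at 93.3% of the control mean, both below every control library. Read depth is not held in FPKM values. Between 21643 and 22507 genes were above 0 FPKM in the control libraries, 15577 to 20842 in MFN1-KD, with MFN1-KD replicate 3 the lowest, and 23655 to 24820 in H3.3-KD. Of 18 markers of the early embryo, 16 or 17 reached 1 FPKM in every group. Their summed level ran from 12142 to 15490 FPKM in control, from 17571 to 21492 in MFN1-KD and from 8397 to 10185 in H3.3-KD. Most of this sum was *Dppa3*, with means of 12699, 18441 and 6889 FPKM in that order, and the sum does not describe the other markers. Of 17 embryo markers tested, 12 had a negative fitted change in MFN1-KD. None was called there by limma, against 3.35% of all genes, and 8 had an unadjusted p under 0.05, against 23.2%. After H3.3 knockdown 7 were called higher and 1 lower, against 21.8% and 9.12% of all genes. Of 12 markers of cumulus and granulosa cells only *Amhr2* reached 1 FPKM, and the other 11 summed to at most 0.45 FPKM in control, 1.2 FPKM after *Mfn1* knockdown and 1.35 FPKM after H3.3 knockdown. *Amhr2* was at 16.05 to 29.79 FPKM in control, 10.16 to 19.32 in MFN1-KD and 38.01 to 66.09 in H3.3-KD. *Inhba* and *Fshr* were listed at 0 in every library, and *Has2* in all but H3.3-KD replicate 3 (0.01 FPKM). The part of these markers in the results below was not tested. In pooled embryos, fewer cells and less RNA per cell cannot be told apart.

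In control embryos the transcripts of the complex spanned a wide range of levels. *Cnot8* was the most abundant at 157 ± 6.08 FPKM, followed by *Cnot7* at 97.7 ± 15.0 and *Cnot1* at 79.1 ± 9.65, and the last pair overlapped between libraries. *Cnot2* came next at 35.9 ± 3.53. *Cnot10*, *Cnot6* and *Cnot11* lay between 12.8 and 18.5 FPKM with overlapping ranges. The lowest members were *Cnot4* (7.10 ± 0.569), *Cnot3* (6.27 ± 2.19) and *Cnot6l* (4.36 ± 1.77), which overlapped as well. FPKM is scaled by transcript length, but the lengths used are not given in the sources used here. For *Cnot1* the longest coding transcript has 8390 bases and all its exons together cover 17169, and for *Cnot11* 3482 and 3508. The order of the genes may therefore depend on the lengths used.

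**Figure D1:**
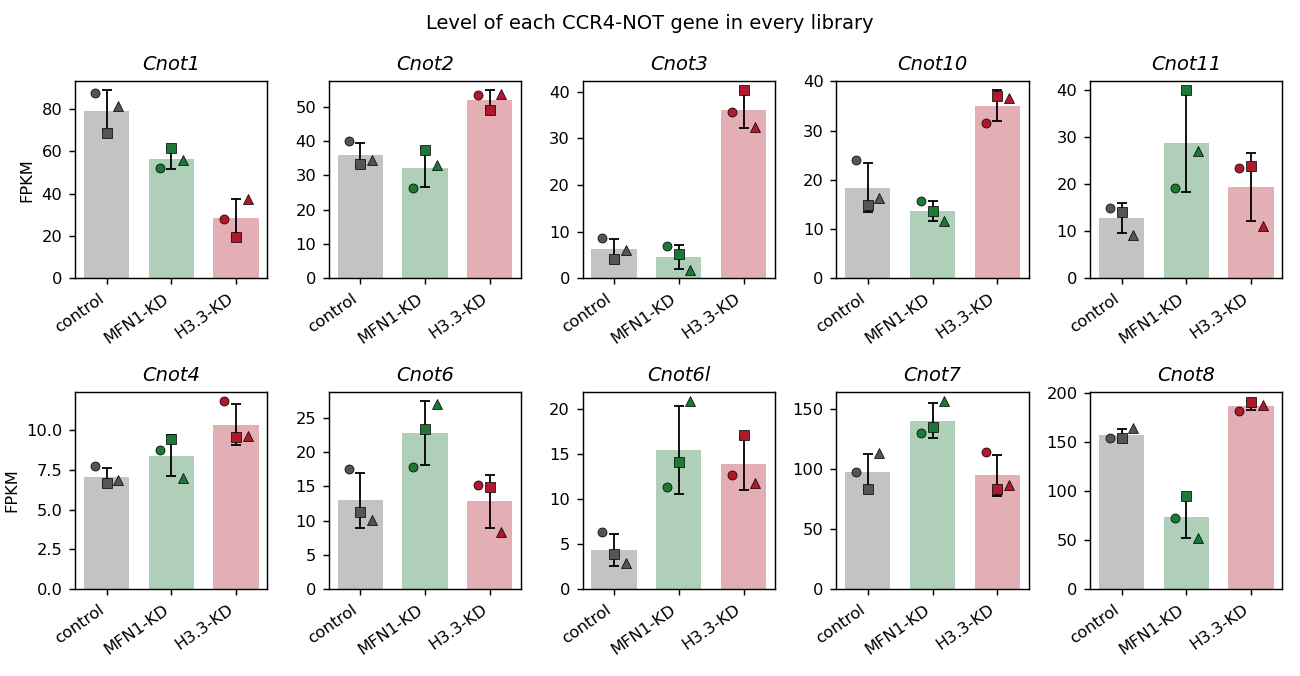
FPKM of each CCR4-NOT gene (vertical axis, linear, starting at 0) in the control (grey), MFN1-KD (green) and H3.3-KD (red) groups. Bars are means of 3 libraries, error bars are SD, and circle, square and triangle mark replicates 1, 2 and 3. *Cnot3* in H3.3-KD (32.47 to 40.30 FPKM) and *Cnot8* in MFN1-KD (52.16 to 94.58 FPKM) lie clear of their control libraries.

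To learn which subunits differed between the groups, a linear model was fitted to log2(FPKM + 1) of all 13011 genes with limma, and p-values were adjusted over all of them by the Benjamini-Hochberg method. A gene was called when its adjusted p was under 0.05. Fold changes below are on the log2(FPKM + 1) scale, which understates the change of low genes.

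In MFN1-KD, 2 of 10 members were called, against 3.35% of all genes tested. *Cnot6l* was higher, against 1.15% of all genes, and *Cnot8* lower, against 2.2%. At an unadjusted p under 0.05 there were 5 members, against 23.2% of all genes. The rule of the study (over 2-fold and unadjusted p under 0.05) was applied here to the limma fit, whereas the study used DESeq2. By this rule there were 3 members, with *Cnot11* as the third, against 14.1% of all genes. The 3 MFN1-KD libraries lay apart from the 3 control libraries in 6 members, 4 of them higher and 2 lower, against 28.2% of all genes in either direction. The median log2 fold change of the 10 genes was 0.02, beside -0.08 for all genes, a value that upper-quartile scaling moved to -0.44. The number of calls in this comparison moved with single libraries. Over all genes it was 436, and without control replicate 2 or control replicate 3 it was 0. Without H3.3-KD replicate 2 it was 1, and with only the 6 libraries compared it was 0. No call in MFN1-KD against control given below, of a member or of a listed gene, was therefore kept with those 6 libraries alone.

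In H3.3-KD, 4 of 10 members were called, against 31% of all genes tested. *Cnot3*, *Cnot6l* and *Cnot10* were higher, against 21.8% of all genes, and *Cnot1* was lower, against 9.12%. At an unadjusted p under 0.05 there were 5 members, against 42.1% of all genes, and by the rule of the study 3, against 33.3%. Here 7 members lay apart from control, 6 higher and 1 lower, against 53.4% of all genes. The share of members called was therefore near that of the transcriptome as a whole. The median log2 fold change of the 10 genes was 0.50, beside 0.26 for all genes. This second value depends on the scaling: it was -0.00 with median-ratio scaling and 0.11 with upper-quartile scaling.

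Both comparisons use the same control libraries. In the direct comparison, which uses none of them, 5 of 10 members were called, against 38.6% of all genes tested. *Cnot1* was higher in MFN1-KD than in H3.3-KD, against 11% of all genes, and *Cnot2*, *Cnot3*, *Cnot8* and *Cnot10* were lower, against 27.6%. Counted at an unadjusted p under 0.05 there were 7 members, against 48.2% of all genes, by the rule of the study 4, against 40.1%, and 8 lay apart between the knockdowns, against 47.9%. The median log2 difference was -0.08 for the members and -0.39 for all genes.

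**Figure D2:**
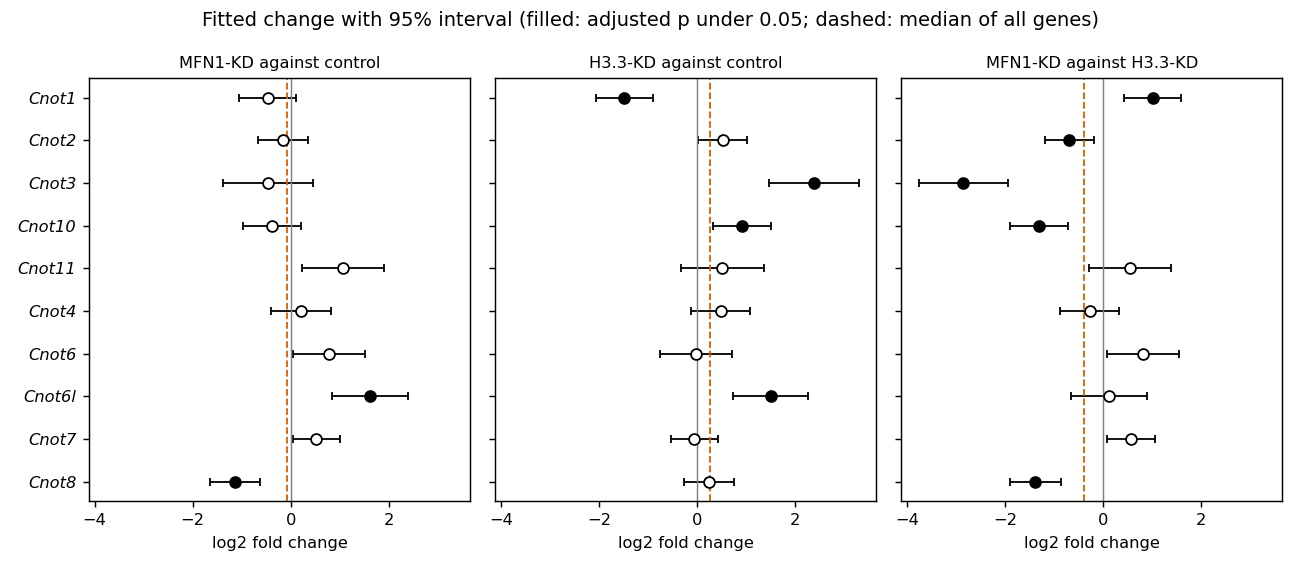
Fitted log2 fold change (horizontal axis, on the log2(FPKM + 1) scale) of each CCR4-NOT gene in MFN1-KD against control (left), H3.3-KD against control (middle) and MFN1-KD against H3.3-KD (right), with 95% intervals; filled points have an adjusted p under 0.05 and the dashed line is the median of all genes. *Cnot6l* stands to the right in both knockdowns (1.62 and 1.50), *Cnot1* and *Cnot3* move in H3.3-KD (-1.48 and 2.39), and *Cnot8* moves in MFN1-KD (-1.13).

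Of the scaffold and the NOT module, *Cnot1* was lower and *Cnot3* higher in H3.3-KD, and none of the 3 genes was called in MFN1-KD. *Cnot1* (ENSMUSG00000036550.16, GRCm38 chromosome 8, 95719451 to 95807464, minus strand) encodes the scaffold. It was at 87.45, 68.56 and 81.40 FPKM in the control libraries. In H3.3-KD it was at 28.29, 19.69 and 37.35 FPKM. All H3.3-KD libraries lay below all control libraries, and their mean of 28.4 ± 8.83 FPKM was 35.9% of the control mean. The log2 fold change was -1.48 (SE 0.26, 95% interval -2.07 to -0.90, limma adjusted p = 0.00239), and *Cnot1* was called under each of 17 other settings of the analysis. MFN1-KD held 52.11, 61.63 and 56.06 FPKM, between the other groups and overlapping neither. The difference of MFN1-KD from control was -0.47 (95% interval -1.06 to 0.11, limma adjusted p = 0.314). The difference between the knockdowns was 1.01 (0.43 to 1.59, limma adjusted p = 0.0124), with *Cnot1* the higher in MFN1-KD.

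A processed pseudogene, *Gm6158* (chromosome 14, 24069734 to 24070637), carries a copy of part of *Cnot1*. Runs of at least 75 bases shared with *Cnot1* cover 99.7% of its 904 bases, so reads from that stretch may be hard to tell apart. *Gm6158* was listed at 100.72, 80.27 and 62.48 FPKM in control and at 86.04, 87.50 and 82.23 FPKM in MFN1-KD. It was at 14.46, 8.98 and 19.18 FPKM in H3.3-KD, again with no overlap with control (log2 fold change -2.47, SE 0.30, limma adjusted p = 0.000331). The fall in H3.3-KD was listed at both annotations, which may share reads and so may not be independent. How the reads of this stretch were divided between the gene and the pseudogene was not tested.

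*Cnot2* (ENSMUSG00000020166.15, chromosome 10, 116485161 to 116581511, minus strand) encodes a structural subunit that pairs with CNOT3 on the scaffold. Control libraries were at 39.97, 33.42 and 34.42 FPKM, MFN1-KD at 26.25, 37.49 and 32.89 and H3.3-KD at 53.47, 48.92 and 53.70. H3.3-KD lay above both other groups, whereas control and MFN1-KD overlapped. H3.3-KD differed from control by a log2 fold change of 0.52 (95% interval 0.02 to 1.03, limma adjusted p = 0.106), and MFN1-KD did by -0.16 (-0.67 to 0.34, limma adjusted p = 0.710). Between the knockdowns *Cnot2* was lower in MFN1-KD by a called -0.69 (limma adjusted p = 0.0355). That call was kept under 7 of 17 other settings, where the adjusted p ran from 0.00998 to 0.34.

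*Cnot3* (ENSMUSG00000035632.16, chromosome 7, 3645268 to 3661109, plus strand), which encodes the partner of CNOT2 in the NOT module, had the largest fitted change of the 10 genes, in H3.3-KD. It was at 8.57, 4.22 and 6.02 FPKM in control and at 6.91, 5.18 and 1.75 FPKM in MFN1-KD. H3.3-KD held 35.60, 40.30 and 32.47 FPKM. The lowest H3.3-KD library was far above the highest of the other 6, which overlapped each other. The H3.3-KD mean of 36.1 ± 3.94 FPKM was 576% of the control mean. The log2 fold change was 2.39 (SE 0.41, 95% interval 1.48 to 3.31, limma adjusted p = 0.00209), and it stayed called under each of 17 other settings, at 1.44 to 2.61. In MFN1-KD the difference was -0.46 (-1.38 to 0.45, limma adjusted p = 0.538). The direct comparison gave -2.85 (-3.77 to -1.94, limma adjusted p = 0.000550), the largest difference of any member.

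Exons of *Cnot3* overlap those of *Leng1* on the opposite strand, and the strand setting of the counting is not given in the sources used here. *Leng1* was at 18.3 ± 0.653 FPKM in control and 21.2 ± 6.61 in H3.3-KD, where its libraries overlapped with control. A processed pseudogene with shared runs, *Gm9207* (chromosome 3), was at 0 to 0.05 FPKM in control, listed at 0 in MFN1-KD and at 0.41 to 0.65 FPKM in H3.3-KD, far below *Cnot3* itself.

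The region upstream of *Cnot3* is shown beside that of *Cnot10*, as these were the 2 called members that rose in H3.3-KD and were not called in MFN1-KD; both hold a single annotated start in the RefSeq table used. The windows are the 250 bases before that start, chr7:3645019-3645268 on the plus strand for *Cnot3* and chr9:114640201-114640450 on the minus strand for *Cnot10* (RefSeq, GRCm38.p6), both printed 5′ to 3′ in the direction of transcription. Capitals mark the motifs searched on both strands, namely the CCAAT box (CCAAT), the GC box (GGGCGG) and the TATA box (TATAAA), which do not overlap each other here.
Cnot3: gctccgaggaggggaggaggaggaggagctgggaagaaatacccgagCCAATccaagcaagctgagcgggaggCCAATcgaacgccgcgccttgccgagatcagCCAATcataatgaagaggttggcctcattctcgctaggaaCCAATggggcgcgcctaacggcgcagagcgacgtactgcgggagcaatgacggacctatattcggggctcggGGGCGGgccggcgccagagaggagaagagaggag
Cnot10: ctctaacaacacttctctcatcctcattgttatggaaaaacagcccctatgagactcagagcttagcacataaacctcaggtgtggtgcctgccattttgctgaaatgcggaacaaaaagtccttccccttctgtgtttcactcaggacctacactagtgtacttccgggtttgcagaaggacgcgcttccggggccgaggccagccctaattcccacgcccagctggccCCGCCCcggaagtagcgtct
The *Cnot3* window held 4 CCAAT boxes, and 0.83% of 32817 windows of this length in the table held as many. It also held 1 GC box and 22 CG dinucleotides, a number that 14.8% of windows reached, and its GC content was 62.4%. The *Cnot10* window held no CCAAT box, 1 GC box (printed as its reverse complement) and 10 CG dinucleotides, which 37.8% of windows reached. A TATA box was found in neither. In all windows, the CCAAT box occurred in 33.8%, the GC box in 32.7% and the TATA box in 12.4%. The upstream windows of these genes thus shared a GC box and differed in their CCAAT boxes, and such matches only describe the letters.

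*Cnot10* and *Cnot11* encode the partners of the module at the N-terminal end of CNOT1, and their transcripts did not move together. *Cnot10* (ENSMUSG00000056167.7, chromosome 9, 114585878 to 114640184, minus strand) was at 24.06, 14.97 and 16.32 FPKM in control. It was at 31.52, 37.08 and 36.62 FPKM in H3.3-KD, above every library of the other groups. MFN1-KD was at 15.76, 13.72 and 11.57 FPKM and overlapped with control. Fitted against control, H3.3-KD gave 0.92 (SE 0.27, 95% interval 0.32 to 1.51, limma adjusted p = 0.0257), which 9 of 17 other settings kept as a call. The adjusted p ran from 0.0162 to 0.186 over these settings. The difference of MFN1-KD from H3.3-KD was -1.30 (-1.90 to -0.71, limma adjusted p = 0.00375) and was called in all 17. Against control, *Cnot10* in MFN1-KD differed by -0.39 (-0.98 to 0.21, limma adjusted p = 0.421).

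*Cnot11* (ENSMUSG00000003135.15, chromosome 1, 39534992 to 39546889, plus strand) was at 15.00, 14.22 and 9.30 FPKM in control. MFN1-KD held 19.29, 39.96 and 27.15 FPKM, all above control, with a mean at 224% of the control mean. The log2 fold change of 1.07 (SE 0.38, 95% interval 0.23 to 1.91) had an unadjusted p of 0.0170 in limma and did not pass after adjustment (0.129). H3.3-KD, at 23.55, 23.80 and 11.16 FPKM, overlapped with both other groups, as its replicate 3 fell within the control range. Its log2 fold change was 0.52 (-0.32 to 1.36, limma adjusted p = 0.325).

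*Cnot4* (ENSMUSG00000038784.13, chromosome 6, 35022065 to 35133724, minus strand) encodes a ubiquitin ligase that in mammals is only loosely held by the complex. It was at 7.74, 6.66 and 6.89 FPKM in control, 8.78, 9.46 and 6.98 in MFN1-KD and 11.85, 9.60 and 9.68 in H3.3-KD. H3.3-KD lay above the other groups, by a small margin over MFN1-KD, and MFN1-KD overlapped with control. Log2 fold changes of 0.49 in H3.3-KD (95% interval -0.12 to 1.09, limma adjusted p = 0.203) and 0.21 in MFN1-KD (-0.40 to 0.81, limma adjusted p = 0.689) did not pass. The value in MFN1-KD changed sign with upper-quartile scaling (-0.22) and with the trend on GC content and length removed (-0.05).

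Among the catalytic subunits of the CCR4 type, *Cnot6l* was called higher in both knockdowns and its paralogue *Cnot6* in neither. *Cnot6l* (ENSMUSG00000034724.18, chromosome 5, 96070333 to 96164171, minus strand) was at 6.31, 3.92 and 2.85 FPKM in control. It reached 11.35, 14.05 and 20.85 FPKM in MFN1-KD and 12.65, 17.13 and 11.73 FPKM in H3.3-KD. All 6 knockdown libraries lay above all 3 control libraries, and the knockdown groups overlapped with each other. Relative to control, the mean was 354% for MFN1-KD and 317% for H3.3-KD. Fitted against control, the H3.3-KD value was 1.50 (SE 0.35, 95% interval 0.73 to 2.28, limma adjusted p = 0.00897), called under each of 17 other settings. In MFN1-KD it was 1.62 (SE 0.35, 0.85 to 2.40, limma adjusted p = 0.0409), and 7 of 17 other settings kept the call, with adjusted p from 0.0287 to 0.173. The direct difference was 0.12 (-0.65 to 0.90, limma adjusted p = 0.808).

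*Cnot6l* has the lowest GC content of the members' coding transcripts, 37.6% over 8564 bases, beside 57.3% for *Cnot3* as the highest. With the trend of the fold changes on GC content and length removed, its log2 fold change in MFN1-KD was 0.88 and no longer called, and the direct difference became -1.22 (limma adjusted p = 0.012), lower in MFN1-KD. The order of the knockdowns for this gene therefore rests on the processing. The rise in H3.3-KD kept its call under that setting.

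*Cnot6* (ENSMUSG00000020362.13, chromosome 11, 49671503 to 49712723, minus strand) was at 17.49, 11.27 and 10.06 FPKM in control. In MFN1-KD it was at 17.84, 23.44 and 27.09 FPKM, with the lowest library just above control replicate 1. H3.3-KD, at 15.17, 14.85 and 8.37 FPKM, overlapped with control. The log2 fold change was 0.79 in MFN1-KD (95% interval 0.05 to 1.52, limma unadjusted p = 0.0378, adjusted p = 0.186) and -0.02 in H3.3-KD (-0.76 to 0.71, limma adjusted p = 0.973). The coding sequences of *Cnot6* and *Cnot6l* (1674 and 1668 bases) were identical at 73.7% of aligned positions and shared no run over 20 bases, well under the read length of 150 bases.

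The CAF1-type pair *Cnot7* and *Cnot8*, the most abundant catalytic transcripts, went in opposite directions in MFN1-KD, where the fall of *Cnot8* was called and the difference of *Cnot7* did not pass after adjustment. *Cnot8* (ENSMUSG00000020515.13, chromosome 11, 58104153 to 58118594, plus strand) was at 153.76, 153.83 and 164.32 FPKM in control. It was at 72.64, 94.58 and 52.16 FPKM in MFN1-KD and at 182.08, 191.16 and 187.98 FPKM in H3.3-KD. The 3 groups did not overlap, with MFN1-KD the lowest at 46.5% of the control mean and H3.3-KD the highest at 119%. In MFN1-KD the log2 fold change was -1.13 (SE 0.23, 95% interval -1.65 to -0.62, limma adjusted p = 0.0380). Under 17 other settings it ran from -1.62 to -0.92 and was called in 7, with adjusted p from 0.0226 to 0.16. H3.3-KD differed from control by 0.25 (-0.27 to 0.76, limma adjusted p = 0.448), which median-ratio scaling turned to -0.10. The direct difference of -1.38 (-1.90 to -0.87, limma adjusted p = 0.00123) was called in all 17.

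A processed pseudogene on chromosome 8, *Gm18860* (71704205 to 71704968), shares runs of at least 75 bases with *Cnot8* over 39.1% of its 764 bases. It was at 22.78, 23.75 and 26.97 FPKM in control and at 12.60, 14.06 and 4.95 FPKM in MFN1-KD (log2 fold change -1.25, SE 0.35, limma adjusted p = 0.0773). The pseudogene was low in the same libraries as *Cnot8*. How the shared reads were divided was not tested.

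*Cnot7* (ENSMUSG00000031601.16, chromosome 8, 40492540 to 40515847, minus strand) was at 97.16, 82.99 and 112.94 FPKM in control and 113.74, 83.14 and 86.59 in H3.3-KD. MFN1-KD held 129.37, 134.80 and 156.28 FPKM, above every other library, with a mean at 143% of control. The log2 fold change there was 0.52 (SE 0.22, 95% interval 0.04 to 1.01), with an unadjusted p of 0.0373 in limma and an adjusted p of 0.185. Over 17 other settings it ran from 0.04 to 0.63 and was called in none, with limma adjusted p from 0.132 to 0.942. The value in H3.3-KD was -0.05 (-0.54 to 0.43, limma adjusted p = 0.886). *Zdhhc2*, whose exons overlap those of *Cnot7* on the opposite strand, was at 3.48 ± 0.264 FPKM in control and 13.3 ± 6.51 in MFN1-KD. The coding sequences of *Cnot7* and *Cnot8* were identical at 72.4% of aligned positions, with no shared run over 20 bases.

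The make-up of the transcript pool was described by the percent of the summed FPKM of the 10 genes within each library, a measure in which a rise of one gene lowers the share of the rest. The sum itself overlapped between control (394 to 458 FPKM) and MFN1-KD (360 to 434 FPKM) and was higher in H3.3-KD (476 to 508 FPKM). These sums are of unscaled values and were not recomputed with other scalings, so the higher sum in H3.3-KD may depend on the scaling. For *Cnot8*, the largest part of it, median-ratio scaling turned the log2 fold change in H3.3-KD from 0.25 to -0.10. FPKM summed over all entries also differed, at 1113563 to 1331977 in control and 933452 to 968604 in H3.3-KD. For control, MFN1-KD and H3.3-KD in this order, *Cnot8* held 36.5 ± 2.74%, 18.4 ± 4.51% and 38.2 ± 2.08%. *Cnot7* held 22.6 ± 2.46%, 35.6 ± 4.38% and 19.2 ± 2.79%. The most abundant transcript was therefore *Cnot8* in control and H3.3-KD, and *Cnot7* in MFN1-KD. *Cnot1* held 18.3 ± 0.859%, 14.3 ± 0.140% and 5.83 ± 1.91%. *Cnot3* held 1.43 ± 0.407% in control and 7.38 ± 0.802% in H3.3-KD, more than *Cnot1* on average in the latter. *Cnot6l*, the least abundant member in control at 1.01 ± 0.369%, held 3.90 ± 1.22% and 2.83 ± 0.606% in the knockdowns. The shares carry no test, and setting those of different genes side by side depends on the transcript lengths used, which are not known.

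**Figure D3:**
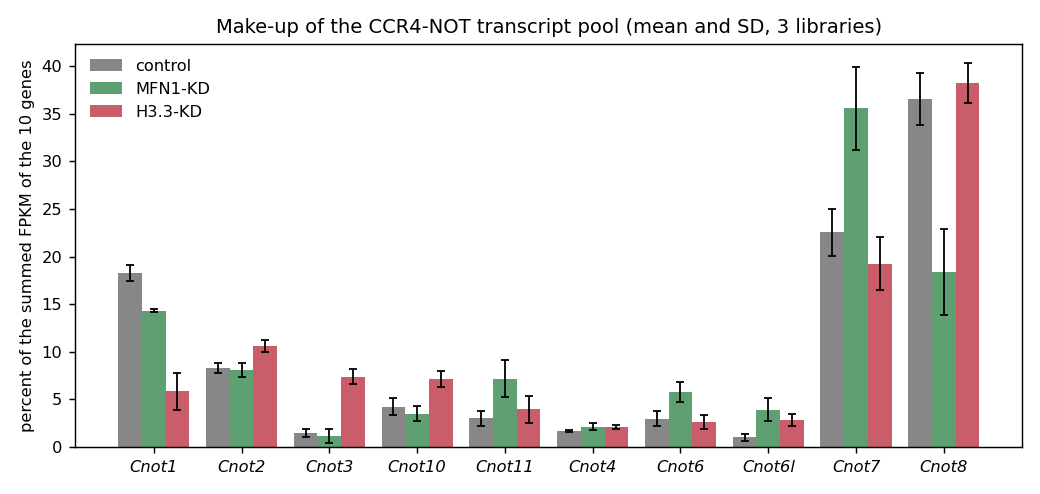
Percent of the summed FPKM of the 10 CCR4-NOT genes held by each gene (vertical axis, starting at 0) in control, MFN1-KD and H3.3-KD; bars are means and error bars SD of 3 libraries. In MFN1-KD *Cnot7* holds the largest share (35.6%) and *Cnot8* the second (18.4%), and in H3.3-KD *Cnot1* (5.83%) stands below *Cnot3* (7.38%).

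Ratios within a library do not depend on a common scaling. They can still depend on the transcript lengths used and on a trend with GC content, which was 57.3% for *Cnot3* and 43.8% for *Cnot2*. The ratios were not recomputed with that trend removed. The ratio of *Cnot7* to *Cnot8* was 0.632, 0.539 and 0.687 in control, 1.78, 1.43 and 3.00 in MFN1-KD and 0.625, 0.435 and 0.461 in H3.3-KD. It was above 1 in every MFN1-KD library and below 1 in all 6 others. The ratio of *Cnot6l* to *Cnot6* was 0.361, 0.348 and 0.283 in control, 0.636, 0.599 and 0.770 in MFN1-KD and 0.834, 1.15 and 1.40 in H3.3-KD. The 3 groups did not overlap, and *Cnot6l* came closest to or passed *Cnot6* in H3.3-KD. The ratio of *Cnot3* to its partner *Cnot2* was 0.214, 0.126 and 0.175 in control, 0.263, 0.138 and 0.0532 in MFN1-KD and 0.666, 0.824 and 0.605 in H3.3-KD. H3.3-KD stood above the other groups, which overlapped. With 3 libraries against 3 the smallest two-sided p of an exact permutation test is 0.1, so these ratios are given as a description.

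**Figure D4:**
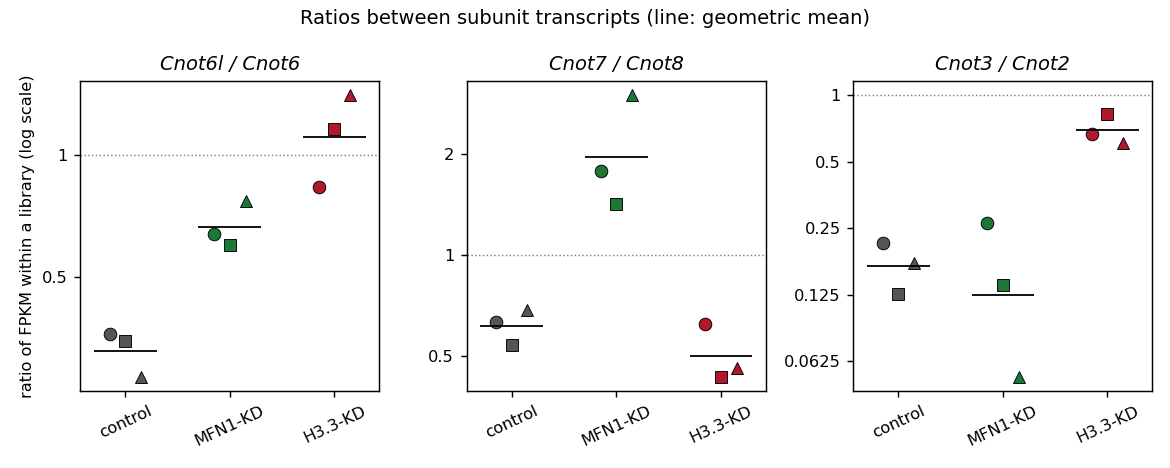
Ratio of FPKM between pairs of CCR4-NOT genes within each library (vertical axis, log scale), by group; circle, square and triangle mark replicates 1, 2 and 3, the line is the geometric mean, and the dotted line marks a ratio of 1. *Cnot7* exceeds *Cnot8* in the 3 MFN1-KD libraries (1.43 to 3.00), and *Cnot6l* to *Cnot6* is lowest in control (0.283 to 0.361).

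The factors that bring the complex to its targets were looked at next. Of 20 listed adaptors 17 were tested, and MFN1-KD had 2 of them higher and none lower, against 1.15% and 2.2% of all genes. H3.3-KD had 9 higher and 1 lower, against 21.8% and 9.12%. The median log2 fold change of these adaptors was 0.64 in the former and 0.89 in the latter, beside -0.08 and 0.26 for all genes. *Ythdf2*, a reader of m6A that calls the complex to methylated mRNAs, was at 138.44, 122.0 and 132.84 FPKM in control, 285.16, 196.09 and 312.58 in MFN1-KD and 262.09, 216.37 and 227.48 in H3.3-KD. It rose in both knockdowns (log2 fold change 0.98, limma adjusted p = 0.0440, and 0.84, limma adjusted p = 0.0153). *Zfp36l2*, which binds AU-rich elements, was higher in MFN1-KD (1.85, limma adjusted p = 0.0499), and its relative *Zfp36* was higher in H3.3-KD (2.53, limma adjusted p = 0.000472). The MFN1-KD calls of *Ythdf2* and *Zfp36l2*, like all calls in that comparison, were lost with only the 6 libraries compared.

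*Tob2*, whose protein binds the CAF1-type nucleases, was higher in H3.3-KD (1.33, limma adjusted p = 0.0400). *Nanos3*, a germline adaptor, was the adaptor that fell there (-1.99, limma adjusted p = 0.0406). *Btg4*, the partner of the complex in oocytes, varied widely between replicates. It was at 11.58, 4.78 and 9.81 FPKM in control, 11.48, 9.35 and 3.11 in MFN1-KD and 2.29, 66.1 and 16.66 in H3.3-KD, where the spread between replicates exceeded any difference between groups (limma adjusted p = 0.562, and 0.937 for MFN1-KD). *Pabpc1l*, the poly(A)-binding protein gene of the oocyte, was below the minimum mean of 1 FPKM and was not tested.

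Other enzymes of mRNA decay are given by list, and the calls of each list are to be read against 3.35% of all genes called in MFN1-KD and 31% after H3.3 knockdown. Of 8 other deadenylase genes tested, MFN1-KD had 1 higher, and H3.3-KD had 3 higher and 1 lower (medians -0.31 and 0.79, beside -0.08 and 0.26 for all genes). The gene of the PAN2 partner *Pan3* moved in opposite directions. It was at 108.23, 73.23 and 73.20 FPKM in control, 245.92, 195.93 and 214.97 in MFN1-KD and 35.37, 43.04 and 60.09 in H3.3-KD, with no overlap between the groups. Its log2 fold change was 1.38 in MFN1-KD (limma adjusted p = 0.0342) and -0.87 in H3.3-KD (limma adjusted p = 0.0274). *Toe1*, another deadenylase gene, was higher in H3.3-KD (1.10, limma adjusted p = 0.0202).

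Of 20 genes of decapping and 5′ to 3′ decay, MFN1-KD had 1 higher and none lower, and H3.3-KD had 4 higher and 5 lower (medians 0.03 and 0.12). Of all genes, 1.15% were called higher and 2.2% lower in the first comparison, and 21.8% and 9.12% in the second. *Lsm7*, a subunit of the ring that binds shortened tails, was higher in MFN1-KD (1.10, limma adjusted p = 0.0466) and lower in H3.3-KD (-1.75, limma adjusted p = 0.000756). *Lsm5* of the same ring fell in H3.3-KD (-2.13, limma adjusted p = 0.000630), whereas *Lsm14b*, of oocyte storage particles, rose (2.36, limma adjusted p = 0.000753). Of 17 genes of the exosome and the Ski complex, which degrade mRNA from the 3′ end, MFN1-KD had 1 higher and 1 lower, and H3.3-KD had 1 higher and 3 lower (medians -0.38 and -0.28), the latter a smaller share than the 31% of all genes called. *Dis3*, a nuclease of the exosome, was the gene that rose in MFN1-KD (1.42, limma adjusted p = 0.0357) and *Exosc5* the gene that fell (-1.28, limma adjusted p = 0.0333). In H3.3-KD *Exosc6* rose (3.38, limma adjusted p = 0.00231), while *Exosc8* fell (-1.46, limma adjusted p = 0.00329).

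Of 14 genes that bind, extend or uridylate the poly(A) tail, none was called in MFN1-KD by limma, where 3 had an unadjusted p under 0.05, against 23.2% of all genes. In H3.3-KD 1 was higher (*Pabpn1*, 1.25, limma adjusted p = 0.0345) and 2 were lower, against 31% of all genes called in either direction. *Tut4*, a uridylating enzyme, was one of the latter (-1.26, limma adjusted p = 0.0216). *Cpeb2* had the smallest p of this list in MFN1-KD (1.24, limma adjusted p = 0.0723). Maternal transcripts, a class of mRNAs that the complex clears, were represented by 17 tested genes. None of them was called in MFN1-KD by limma, where 2 had an unadjusted p under 0.05, against 23.2% of all genes. *Omt2a* alone was called in H3.3-KD, where it was lower (-1.54, limma adjusted p = 0.0126), against 31% of all genes. *Tcl1* had the smallest p in MFN1-KD (-1.98, limma adjusted p = 0.0800). These 17 genes had a median log2 fold change of 0.02 in the first comparison and 0.19 in the second, close to -0.08 and 0.26 for all genes. In control the means of these genes ran from 0.86 to 140 FPKM. Most were at 2.70 FPKM or less, where the log2(FPKM + 1) scale understates a change. Their levels at a single stage give no rate of decay.

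Genes whose levels followed a member most closely over the 9 libraries were sought among 5907 genes that averaged 10 FPKM or more. Nearest to *Cnot1* were *Rn7sk* (Pearson r = 0.949), *Gm8797* (0.945) and *Atraid* (0.943). *Cnot6l* was followed by *Ubqln2* (0.98), *Ipo7* (0.971) and *Smndc1* (0.97). *Cnot7*, with a smaller difference between groups, was followed less closely by *Fmr1* (0.917), *Rnpc3* (0.889) and *BC028528* (0.886). These correlations describe 9 libraries in 3 groups, and the libraries of a group share their treatment.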

How the data were processed

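Pools of 8-cell embryos were amplified by the Smart-Seq2 method with oligo-dT priming and sequenced as paired reads of 150 bases. The authors trimmed reads with cutadapt 1.16 and aligned them to mm10 with STAR, according to the submitters' processing notes and the methods of the study. The deposited values are FPKM with 2 decimals for 55335 entries per library. The program that computed FPKM, its annotation and its use of strand are not given in the sources used here, and whole reads could not be recovered, so the depth is unknown. Differential expression by the authors used DESeq2.

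Groups and replicate numbers were taken from the sample titles. Values were transformed to log2(FPKM + 1), genes with a mean under 1 FPKM over the 9 libraries were left out, and 1 linear model over all libraries was fitted with limma 3.58.1 (trend and robust options, R 4.3.3). P-values were adjusted by the Benjamini-Hochberg method over 13011 genes, with a threshold of 0.05. The code was tested on simulated data. Gene positions, overlaps and shared runs came from GENCODE M21 on GRCm38, the same assembly as mm10, and upstream windows from RefSeq. The members and gene lists were chosen with earlier results of these data known. All members are named. From each other list the text names the gene with the smallest p in each knockdown, the gene called with the largest change in the other direction, and *Btg4*, *Tob2*, *Pabpc1l* and *Zfp36l2*. The genes of similar pattern are the 3 with the highest r for *Cnot1*, *Cnot6l* and *Cnot7*. Not all genes that overlap a member or share runs of 75 bases with it are named, and those named were chosen after their values were seen. Replicate numbers are shared between groups, and the deviations of same-numbered libraries correlated by -0.053 to 0.158 over 9 pairs, with 2 above 0.1, so the numbers were not taken to pair the libraries. Alternatives were other scalings, filters and a pseudocount of 0.1, the replicate number as a block, removal of the trend on GC content and length, the 6 libraries compared alone, and leaving out each library.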

Additional observations from a re-analysis of the deposited data

How the results depend on the processing

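The number of members called in MFN1-KD against control was 2, and it became 0 with no filter on low values, with the replicate block, with the trend on GC content and length removed and with only the 6 libraries compared. It ranged from 0 to 2 when single libraries were left out. Leaving out any one control library gave 0, as did leaving out H3.3-KD replicate 1 or H3.3-KD replicate 2, and leaving out MFN1-KD replicate 1 (which kept *Cnot6l*) or MFN1-KD replicate 3 (which kept *Cnot8*) gave 1. The cause was not tested. In H3.3-KD the 4 calls became 3 to 4 without single libraries. Between the knockdowns the 5 calls ranged from 3 to 5, with 3 without H3.3-KD replicate 2.

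Under the replicate block *Cnot6l* and *Cnot8* in MFN1-KD had limma adjusted p-values of 0.0655 and 0.0548, and over all genes the block left 31 calls of 436 in that comparison. With no filter 2 genes were called there, with upper-quartile scaling 1152.

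Some fold changes that were not called changed sign. In MFN1-KD *Cnot4* became -0.22 with upper-quartile scaling and -0.052 with the GC and length trend removed. In H3.3-KD *Cnot8* became -0.10 with median-ratio scaling. With the GC and length trend removed *Cnot6* became 0.43 and *Cnot7* 0.12 in H3.3-KD. Without single libraries *Cnot6* ranged from -0.17 to 0.24 and *Cnot7* from -0.19 to 0.059. Between the knockdowns *Cnot4* became 0.10 with median-ratio scaling, and *Cnot6l* became -0.15 with upper-quartile scaling and ranged from -0.10 to 0.31 without single libraries. There the GC and length trend turned *Cnot6* to -0.16 and *Cnot6l* to -1.22. The 609 values recomputed were fold changes and counts of members, and 537 of them were taken as the same. For a fold change this meant keeping its direction and its side of the threshold. For a count it meant staying equal or close to the main count. *Cnot4* was not tested with the 10 FPKM minimum. The depth is unknown, and low members such as *Cnot6l* and *Cnot3* in control are the least precise.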
